A study of Mus musculus with 24 samples.

Results

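The comparison described here is APP/PS1 against wild-type (WT) cortex at 6 months of age, measured by small RNA sequencing. All libraries labelled as 6-month-old were taken, which gave 6 of the 24 libraries of the series, 3 from APP/PS1 mice and 3 from WT mice. Both groups are of strain C57BL/6 and differ by genotype only, as far as the labels say. The other 18 libraries, APP/PS1 and WT at 1, 3 and 9 months with 3 mice per group, served to estimate the spread between mice and to show the usual level of each miRNA. The study title names the cerebral cortex, while the label for tissue says brain. Each group held 2 female mice and 1 male mouse, and the labels do not say which library is which. They name neither the mutations nor the promoters of the transgenes, and no human transcript can be checked in a table of mouse miRNAs.

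APP/PS1 mice carry mutant human amyloid precursor protein and presenilin transgenes and deposit amyloid in the cortex as they age. A miRNA is a short RNA that guides Argonaute to transcripts, chiefly through the bases of its seed near the 5′ end, so miRNAs with the same seed are treated as a family. In mammals the miR-99/100, let-7 and miR-125 families are encoded side by side in 3 clusters, and miR-125b and miR-99a are abundant in brain.

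The sequences below are those on which the comparison turns. They are mature mouse miRNAs from RefSeq (GRCm38.p6), written 5′ to 3′, with the seed, bases 2 to 8, in capitals. Of the 433 miRNA names tested, 358 had a mature sequence there. The first 5 are the 5p arms of the clustered families. miR-100-5p and miR-99a-5p differ by A16U, counted from the 5′ end of miR-100-5p, and miR-99b-5p differs from miR-100-5p by A1C, U11A, A16C and U21C. All 3 thus keep 1 seed, which no other tested name with a sequence there had.
miR-100-5p: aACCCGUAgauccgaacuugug
miR-99a-5p: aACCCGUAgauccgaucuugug
miR-99b-5p: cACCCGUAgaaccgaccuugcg
miR-125a-5p: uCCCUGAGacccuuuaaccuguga
miR-125b-5p: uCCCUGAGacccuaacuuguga
The next 4 are miRNAs that stood apart in 1 or 2 libraries of 6 months.
miR-346-5p: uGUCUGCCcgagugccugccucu
miR-342-3p: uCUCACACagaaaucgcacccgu
miR-433-3p: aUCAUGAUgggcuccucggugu
miR-10a-5p: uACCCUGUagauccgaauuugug
The last 3 belong to a set of names whose level at 6 months was many times that at 3 months, or are the family that was low in 1 library of each genotype.
miR-690: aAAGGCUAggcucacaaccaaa
miR-7a-5p: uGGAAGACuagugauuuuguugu
miR-7b-5p: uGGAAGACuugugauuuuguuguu

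In GRCm38, miR-100-5p lies at chr9:41531437-41531458 on the plus strand, in an intron of the noncoding transcript 3110039I08Rik and opposite an exon of Gm48742. miR-125b-5p comes from this cluster, at chr9:41581940-41581961, and from a second locus on chromosome 16. The second cluster holds miR-99a-5p (chr16:77598940-77598961, plus strand), in an intron of Mir99ahg. miR-99b-5p (chr17:17830194-17830215) and miR-125a-5p (chr17:17830817-17830840) lie within Spaca6, in an intron and an exon. miR-346-5p (chr14:34894624-34894646, plus strand) lies in an intron of Grid1, which encodes a glutamate receptor subunit, and miR-342-3p (chr12:108658680-108658702, plus strand) in an intron of Evl. miR-690 (chr16:28599940-28599961, minus strand) lies in an intron of Fgf12.

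The 3 APP/PS1 libraries of 6 months held 5110883, 4101835 and 3464299 counts, and the 3 WT libraries 2230030, 3222020 and 4266691. Values are listed in the order of replicates 1, 2 and 3 throughout. They are CPM, counts scaled to library size, after TMM normalization, which sets library sizes so that most miRNAs do not shift. miR-124-3p, the most abundant neuronal miRNA, took between 15.6% and 19.2% of the counts in each of the 6 libraries. A chi-square statistic between replicates, which is about 1 per degree of freedom for 1 library deposited more than once, was at least 60.5 for each pair, so each library was counted as a sample of its own.

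No miRNA passed an adjusted p of 0.05 at 6 months in edgeR's quasi-likelihood test (0 of 433, 0%), and 0 passed in DESeq2. With no filter on low counts, 11 of 1125 names passed in edgeR. These were miR-125a-5p (adjusted p = 3.99e-12), miR-690 (1.22e-06), the predicted miRNA that follows each of them (1.46e-17 and 1.44e-06), miR-346-5p (2.3e-05), miR-342-3p (3.12e-05), miR-125b-5p (0.00308) and miR-376c-3p (0.0475), which did not pass with the filter, and miR-706 (0.0214), miR-96-5p (0.0474) and miR-466g (0.0475), which the filter removes. For miR-690, dropping the filter took the log2 fold change from -1.08 to -1.03 and its standard error from 0.38 to 0.17. In filtered fits without APP/PS1 replicate 2, the log2 fold changes of miR-125a-5p and miR-346-5p were 0.22 and -0.0040. Without APP/PS1 replicate 1, that of miR-342-3p was -0.67. miR-96-5p had few counts, 17 of them in WT replicate 3. The unfiltered passes are thus not separate support for a difference. With the filter, there were 37 names at an unadjusted p under 0.05 in edgeR, 8.55% of those tested, and 32 in DESeq2. Of the 37, 22 were higher in APP/PS1 cortex (5.08% of those tested) and 15 lower (3.46%). Sizes were small, with a median log2 fold change of -0.0028, a median size of 0.15 and 4 names over 1. The log2 fold change lay above 0 for 215 names (49.7%).

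The 3 APP/PS1 libraries did not overlap the 3 WT libraries for 29 names (6.7%), 13 higher (3%) and 16 lower (3.7%). Of the 37 names, 16 did not overlap, 9 higher and 7 lower. The split of the 29 moves with the scaling. On library totals with no scaling it was 6 higher and 41 lower, with a median log2 fold change over all names of -0.12, and with DESeq2's size factors it was 10 higher and 19 lower.

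Each library was left out in turn to see how these differences depend on a single mouse. A fit with 1 library fewer also has less power, so a lost p under 0.05 need not mean that 1 mouse carried the difference. Without APP/PS1 replicate 2, for example, miR-99a-5p lost it while its log2 fold change went from 0.26 to 0.20. Of the 37 names, 22 no longer had an unadjusted p under 0.05 without APP/PS1 replicate 2. Leaving out 1 of the other 5 libraries lost between 8 and 13. Only 3 of the 37 kept an unadjusted p under 0.05 in all 6 fits: miR-100-5p, miR-125a-3p and a predicted miRNA whose counts follow those of miR-690. For 9 of the 37 the fold change shrank to under 50% of its size in at least 1 fit. Where a name is said below to pass with 1 library left out, the adjustment ran within that fit, not over the 6 fits. Such a pass is a description and not separate support for a difference.

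**Figure D1:**
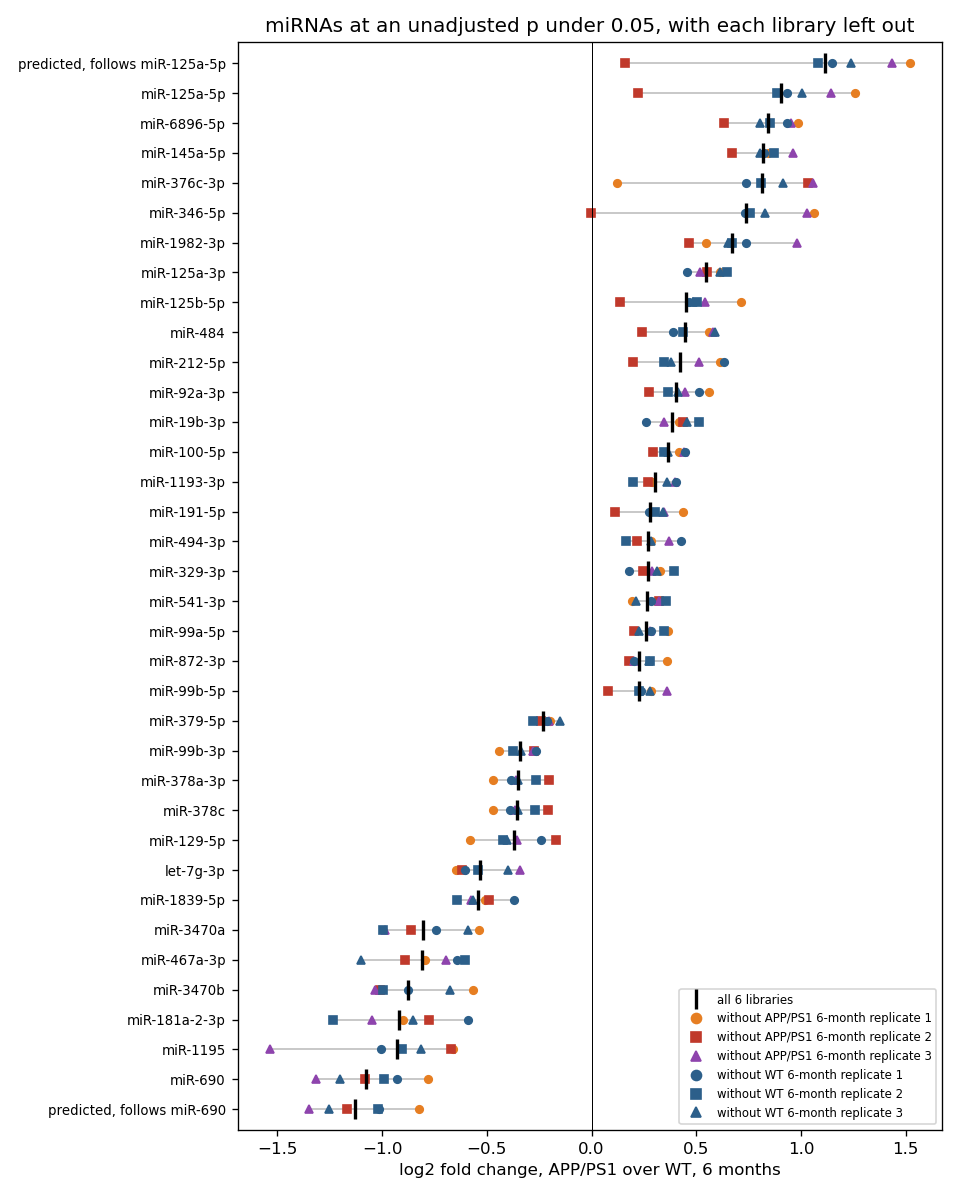
Log2 fold change of APP/PS1 over WT cortex at 6 months (x axis) for the 37 names at an unadjusted p under 0.05, with 1 of 2 identically counted names left out. Black bars are the fit with all 6 libraries and symbols are fits with 1 library left out. Red squares, the fits without APP/PS1 replicate 2, lie far nearer 0 than the black bars for miR-125a-5p, the predicted miRNA that follows it, and miR-346-5p, and the orange circle without APP/PS1 replicate 1 does so for miR-376c-3p.

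The miR-99/100 family gave the smallest p of the comparison. miR-100-5p stood at 20607, 22739.6 and 19025 CPM in APP/PS1 cortex, against 17621, 15491 and 15365 CPM in WT cortex. All 3 APP/PS1 values lay above all 3 WT values. edgeR's quasi-likelihood test gave 0.36 for the log2 fold change (SE 0.091, adjusted p = 0.302), with fits leaving out 1 library between 0.30 and 0.45. It passed without APP/PS1 replicate 1 (adjusted p = 0.0344) and without APP/PS1 replicate 3 (adjusted p = 0.0346) in the same test. In the 18 libraries of the other ages miR-100-5p ranged over 20760.1 to 32656 CPM, so the 3 WT libraries of 6 months, and 2 of the 3 APP/PS1 libraries, lay below every library of another age.

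miR-99a-5p, with 1 base different, stood at 89638, 105863 and 96980.0 CPM in APP/PS1 cortex, against 81788, 89614 and 72922 CPM in WT cortex. The groups did not overlap, though APP/PS1 replicate 1 and WT replicate 2 were all but equal. As a log2 fold change this was 0.26 (SE 0.11, adjusted p = 0.466 in edgeR's quasi-likelihood test). miR-99b-5p stood at 24915, 30051 and 20820.5 CPM in APP/PS1 cortex, against 21480.1, 21283 and 22094 CPM in WT cortex. Here APP/PS1 replicate 3 was below all WT libraries, so the groups overlapped, and the log2 fold change of 0.22 (SE 0.10) was 0.080 without APP/PS1 replicate 2. The 3p arm of the same precursor, miR-99b-3p, was on the other side of 0. It stood at 72.6, 54.9 and 56.01 CPM in APP/PS1 cortex, against 85.3, 73.5 and 75.0 CPM in WT cortex, with no overlap, and its log2 fold change was -0.34 (SE 0.13, adjusted p = 0.384 in edgeR's quasi-likelihood test).

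miR-125 names held far more of the counts of 1 APP/PS1 library than of the others. miR-125a-5p stood at 18123, 59039 and 23583 CPM in APP/PS1 cortex, against 17934, 16814 and 19041 CPM in WT cortex. Replicate 2 was far above the other APP/PS1 libraries and above all 18 libraries of other ages (13326 to 22268 CPM), while replicate 1 lay within the WT values. In edgeR's quasi-likelihood test the log2 fold change was 0.91 (SE 0.26, adjusted p = 0.384), and without replicate 2 the log2 fold change was 0.22. Without replicate 1 it passed, with a log2 fold change of 1.26 (adjusted p = 0.00714 in edgeR). That fit kept replicate 2 and left out the APP/PS1 library within the WT values, so the pass is not separate support for a difference. A predicted miRNA that follows miR-125a-5p (correlation 0.992 over 24 libraries, which share their depth and total) stood at 11388, 49750.4 and 14621 CPM in APP/PS1 cortex, against 11649, 10642 and 12644 CPM in WT cortex. It passed without replicate 1 (log2 fold change 1.52, adjusted p = 0.00714 in edgeR) and without replicate 3 (1.44, adjusted p = 0.0406). Its ratio to miR-125a-5p was 0.843 in replicate 2, beside 0.628 in replicate 1, 0.62 in replicate 3 and 0.633 to 0.664 in WT.

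miR-125b-5p, which shares the seed but comes from the other 2 clusters, stood at 54945, 112934 and 73805 CPM in APP/PS1 cortex, against 57527, 61492 and 57542 CPM in WT cortex. Replicate 2 was the highest and replicate 1 the lowest of the 6, so the groups overlapped. Fitted with edgeR's quasi-likelihood test, the log2 fold change was 0.45 (SE 0.16, adjusted p = 0.384), and without replicate 2 the log2 fold change was 0.14. Without replicate 1 the log2 fold change was 0.72, and it passed (adjusted p = 0.00714 in edgeR). miR-125a-5p, miR-125b-5p and the predicted name together held 19.6% of the counts of APP/PS1 replicate 2. They held 8.22% and 10.2% in APP/PS1 replicates 1 and 3 and 8.42% to 9.43% in the WT libraries, while the 18 libraries of other ages lay between 7.73% and 10.5%.

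The cluster partners of miR-125a-5p differed from each other in replicate 2. miR-99b-5p, given above, was also highest there, at 30051 CPM, above all 18 libraries of other ages (19447 to 26001 CPM). Its log2 distance from the other APP/PS1 libraries was 0.40, beside 1.51 for miR-125a-5p. miR-125a-3p, the other arm of the same hairpin, stood at 13.7, 14.1 and 14.9 CPM in APP/PS1 cortex, against 7.88, 10.9 and 9.98 CPM in WT cortex. All APP/PS1 values were above all WT values, and replicate 2 did not stand out among them. The log2 fold change was 0.55 (SE 0.20, adjusted p = 0.384 in edgeR's quasi-likelihood test), and fits leaving out 1 library gave 0.46 to 0.64. let-7e-5p, encoded between miR-99b and miR-125a, stood at 1545, 1486 and 1474 CPM in APP/PS1 cortex, against 1697, 1504 and 1509 CPM in WT cortex, with the groups overlapping. For miR-125b-5p, the 3p arm of the chromosome 9 hairpin, miR-125b-1-3p, was highest in replicate 2 (117, 191 and 143 CPM in APP/PS1 cortex, against 131, 139 and 123 CPM in WT cortex). The 3p arm of the chromosome 16 hairpin, miR-125b-2-3p, was lowest there (499, 396 and 502 CPM in APP/PS1 cortex, against 599, 505 and 413 CPM in WT cortex).

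Over the 17 tested names listed for the 3 clusters, 0 passed. At an unadjusted p under 0.05, 6 were higher and 1 was lower, against 5.08% and 3.46% of all names. The 17 include let-7c-2-3p, whose hairpin is not in the 3 clusters and which is not among those 6 or that 1. The median log2 fold change of the 17 was 0.17, beside -0.0028 over all 433. The let-7 family, whose members repress growth genes, had 10 tested names and 0 at an unadjusted p under 0.05. Its median log2 fold change was -0.086, with 2 names above 0 and 8 below.

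**Figure D2:**
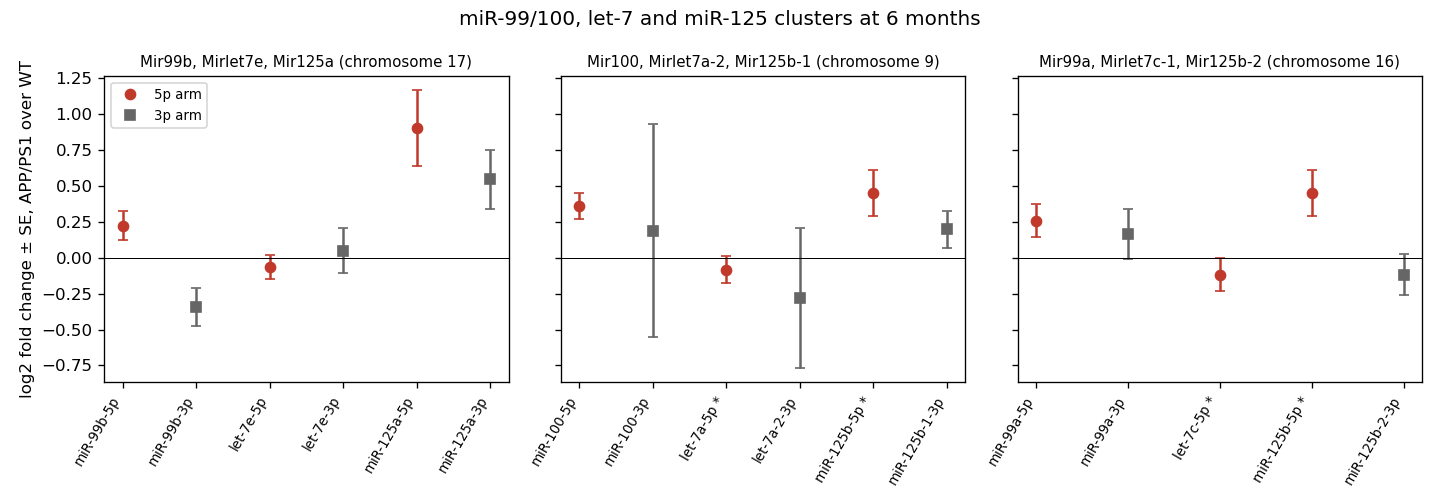
Log2 fold change of APP/PS1 over WT at 6 months with its standard error (y axis) for the arms of the 3 clusters, in genome order within each panel. An asterisk marks a name that more than 1 locus encodes, and miR-125b-5p is drawn in both panels of its loci. The 5p arms of the miR-99/100 and miR-125 families lie above 0 in all 3 clusters, and the let-7 5p arms between them lie at or just below 0.

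Several miRNAs differed between the group means through 1 mouse. miR-346-5p stood at 773, 2386 and 811 CPM in APP/PS1 cortex, against 755, 793 and 836 CPM in WT cortex. Replicate 2 of APP/PS1 was nearly 3 times the next highest value, and the 18 libraries of other ages spanned 586 to 953 CPM. edgeR's quasi-likelihood test gave 0.74 for the log2 fold change (SE 0.29, adjusted p = 0.406), and without that library the log2 fold change was -0.0040. Other names higher in that library than in the other 5 were miR-433-3p, miR-666-5p and miR-770-3p of the imprinted Dlk1-Dio3 locus, and miR-135a-5p. miR-433-3p stood at 555, 1149 and 573 CPM in APP/PS1 cortex, against 517, 634 and 716 CPM in WT cortex, with other ages at 620.0 to 1307 CPM, so that replicate 2 was within their range and APP/PS1 replicates 1 and 3 and WT replicate 1 were below it. miR-666-5p stood at 137, 345 and 116 CPM in APP/PS1 cortex, against 119, 173 and 209 CPM in WT cortex, and miR-770-3p at 36.4, 84.1 and 44.9 CPM in APP/PS1 cortex, against 47.8, 73.5 and 74.6 CPM in WT cortex. In replicate 2 both were within the range of other ages, 151 to 512 CPM for miR-666-5p and 42.2 to 121 CPM for miR-770-3p. miR-135a-5p stood at 302, 642 and 271 CPM in APP/PS1 cortex, against 408, 361 and 422 CPM in WT cortex, and replicate 2 was above the other ages (269 to 464 CPM). For all 4, the other APP/PS1 libraries lay within or below the WT values. miR-34a-5p, a p53 target, stood at 264, 121 and 305 CPM in APP/PS1 cortex, against 241, 190.1 and 144 CPM in WT cortex. Replicate 2 was the lowest and the other APP/PS1 libraries the highest of the 6, while other ages spanned 70.1 to 304 CPM.

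**Figure D3:**
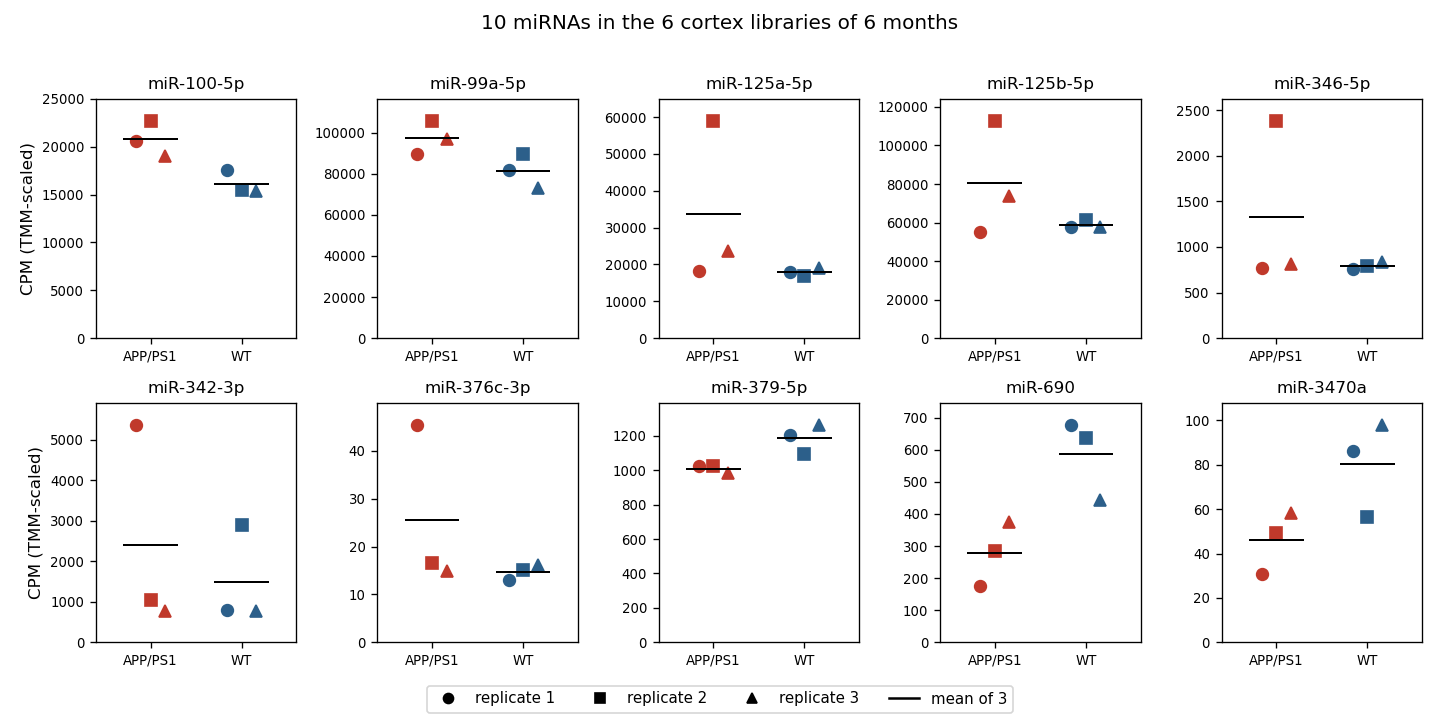
CPM after TMM scaling (y axes, from 0) of 10 miRNAs in the 6 libraries of 6 months, APP/PS1 left and WT right, with replicates 1, 2 and 3 as circles, squares and triangles and the mean as a bar. Groups are apart for miR-100-5p, miR-379-5p and miR-690. A single APP/PS1 library sets the higher mean for miR-125a-5p, miR-346-5p, miR-342-3p and miR-376c-3p.

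miR-342-3p, which is frequent in immune cells and neurons, stood at 5375, 1035 and 778 CPM in APP/PS1 cortex, against 794, 2888 and 783 CPM in WT cortex. APP/PS1 replicate 1 and WT replicate 2 were high, and the other 4 libraries lay close together. As a log2 fold change this was 0.69 (SE 0.51, adjusted p = 0.842 in edgeR's quasi-likelihood test), and without APP/PS1 replicate 1 it was -0.67. In the 18 libraries of other ages miR-342-3p ranged over 3652 to 5428 CPM. APP/PS1 replicate 1 was thus at the level of other ages, and the 5 others, both genotypes, lay below it. The other arm, miR-342-5p, stood at 7.64, 2.76 and 2.53 CPM in APP/PS1 cortex, against 0.464, 8.75 and 2.66 CPM in WT cortex, and the same 2 libraries were highest.

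miR-376c-3p of the Dlk1-Dio3 locus followed a like pattern. It stood at 45.5, 16.6 and 14.9 CPM in APP/PS1 cortex, against 12.98, 15.01 and 16.2 CPM in WT cortex. Only APP/PS1 replicate 1 was in the range of the other ages, 31.7 to 47.9 CPM. In edgeR's quasi-likelihood test the log2 fold change was 0.81 (SE 0.28, adjusted p = 0.384), and without replicate 1 the log2 fold change was 0.12. Without APP/PS1 replicate 3 it passed, with a log2 fold change of 1.06 and an adjusted p of 0.0406 in the same test. The averages of miR-342-3p and miR-376c-3p over both genotypes were lower at 6 than at 3 months, with log2 fold changes of -1.16 and -1.13 (adjusted p = 0.0364 and 0.000214 in edgeR).

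On the WT side, miR-10a-5p, which is encoded in the Hoxb cluster and marks hindbrain, stood at 129.7, 234 and 124 CPM in APP/PS1 cortex, against 134, 545 and 79.7 CPM in WT cortex. WT replicate 2 was above all 18 libraries of other ages (47.3 to 350.1 CPM). Fitted with edgeR's quasi-likelihood test, the log2 fold change was -0.64 (SE 0.68, adjusted p = 0.91), and without WT replicate 2 it was 0.64. miR-10b-5p, the other of the 2 tested names listed for hindbrain, had a log2 fold change of 0.51. Together the 2 names stood at 214, 650 and 141 CPM in WT cortex, of which miR-10a-5p was 134, 545 and 79.7 CPM.

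A departure was counted where a library lay over 2-fold from the mean of the other 2 of its group, and by over 3 times their gap. The 6 libraries of 6 months had 6, 22 and 18 departures in APP/PS1 cortex and 16, 8 and 8 in WT cortex. Together these were 78 departures in 71 names (16.4% of those tested), with a median of 12 a library. The 18 libraries of other ages had 2 to 14, with a median of 7. Among names averaging over 10 CPM in the 24 libraries, the counts at 6 months were 3, 13 and 4 in APP/PS1 cortex. They were 8, 2 and 0 in WT cortex, and at most 6 at other ages. Of the 22 in APP/PS1 replicate 2, 14 were higher and 8 lower. Of the 18 in APP/PS1 replicate 3, 3 were higher and 15 lower, and these include 5 names of the miR-466 family with the same values in all 6 libraries. No single library was tested. Over the 248 tested miRNAs with a sequence and a mean over 10 CPM at 6 months, the departure of a library had correlations with GC content between -0.13 (WT replicate 1) and 0.20 (WT replicate 3), with 0.14 for APP/PS1 replicate 2, given as a description of values that share 1 library.

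**Figure D4:**
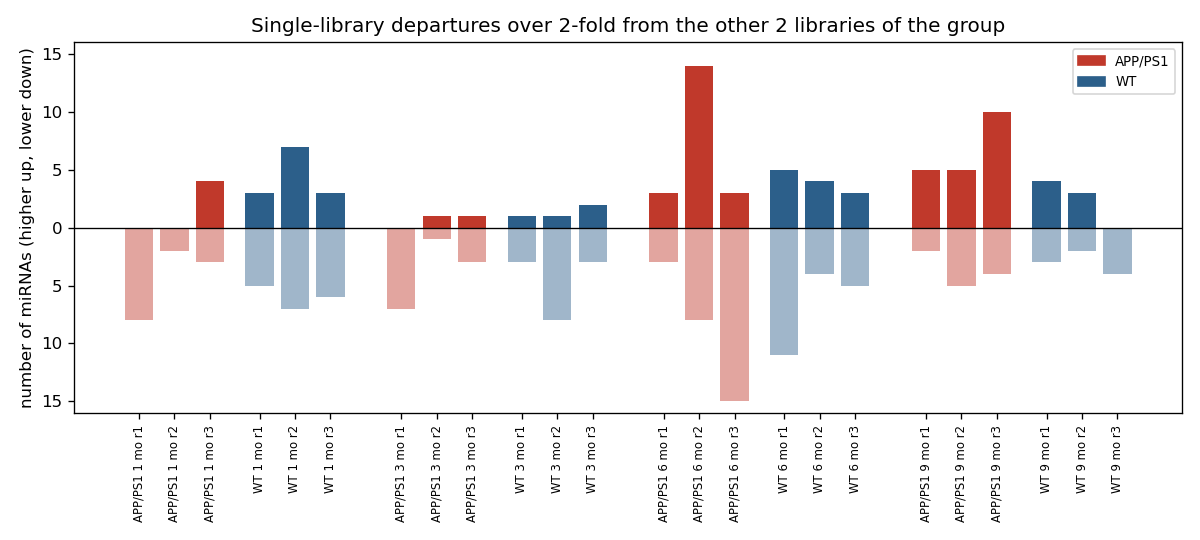
Number of miRNAs for which a library departed over 2-fold from the other 2 of its group, upward above the line and downward below it, for all 24 libraries with APP/PS1 left of WT at each age. APP/PS1 replicates 2 and 3 and WT replicate 1 of 6 months had 22, 18 and 16, above the highest count at other ages, 14. Among names averaging over 10 CPM in the 24 libraries these 3 had 13, 4 and 8, and the highest count at other ages was 6.

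Some miRNAs of a shared gene were low together. These names were singled out after their values were seen. The 3p arms of 3 hairpins in introns of Htr2c, the serotonin receptor 2C gene, were low in APP/PS1 replicate 3 and WT replicate 1. miR-1298-3p stood at 258, 305 and 86.7 CPM in APP/PS1 cortex, against 129.8, 179.8 and 312 CPM in WT cortex. miR-1264-3p stood at 302, 528 and 131 CPM in APP/PS1 cortex, against 124, 294 and 415 CPM in WT cortex. miR-448-3p stood at 30.97, 39.4 and 14.9 CPM in APP/PS1 cortex, against 16.2, 20.3 and 28.2 CPM in WT cortex. The miR-7 family, which is enriched in hypothalamus and pituitary, had its 2 lowest values in the same libraries, with miR-7a-5p at 6103, 9941 and 3669 CPM in APP/PS1 cortex, against 4059.6, 8824 and 8849 CPM in WT cortex. miR-7b-5p stood at 1416, 2206 and 997 CPM in APP/PS1 cortex, against 1262, 1919 and 1912 CPM in WT cortex. In each case the groups overlapped, and 1 mouse of each genotype was low. Libraries of other ages ranged over 92.2 to 347 CPM for miR-1298-3p, 137 to 570.4 CPM for miR-1264-3p and 3136 to 12458 CPM for miR-7a-5p. APP/PS1 replicate 3 lay below that range for miR-1298-3p and miR-1264-3p, and WT replicate 1 for miR-1264-3p. For miR-7b-5p the range was 1108 to 2837 CPM, and APP/PS1 replicate 3 lay below it. For miR-448-3p it was 11.1 to 146 CPM, and all 6 libraries lay within it.

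Among the other higher names, miR-92a-3p, of the miR-17-92 cluster, stood at 309.5, 428 and 353 CPM in APP/PS1 cortex, against 308, 253 and 262 CPM in WT cortex. miR-19b-3p of the same cluster stood at 129, 119 and 136 CPM in APP/PS1 cortex, against 76.97, 114 and 102 CPM in WT cortex. Their log2 fold changes were 0.41 (SE 0.14) and 0.39 (SE 0.16), with adjusted p of 0.384 and 0.457 in edgeR. For miR-92a-3p, the lowest APP/PS1 and the highest WT value nearly met. Not all of this group went that way, since miR-20a-5p had a log2 fold change of -0.24 (SE 0.13). The list of miR-17-92 and its paralogues had 8 tested names, 2 higher and 0 lower at an unadjusted p under 0.05, against 5.08% and 3.46% of all names, and a median of 0.021.

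miR-484 stood at 1351, 1893 and 1247 CPM in APP/PS1 cortex, against 984, 1067 and 1244 CPM in WT cortex, and miR-6896-5p, a low name, at 12.3, 17.9 and 12.02 CPM in APP/PS1 cortex, against 8.81, 7.82 and 7.1 CPM in WT cortex. Neither overlapped, and in both APP/PS1 replicate 2 was highest. For miR-484, the lowest APP/PS1 and the highest WT value nearly met. The log2 fold changes of the 2 names were 0.45 (SE 0.16, adjusted p = 0.384) and 0.84 (SE 0.29, adjusted p = 0.384) in edgeR. Without APP/PS1 replicate 2 they were 0.24 and 0.63. miR-191-5p stood at 27309, 39826 and 30487 CPM in APP/PS1 cortex, against 25843, 27155 and 27447 CPM in WT cortex. Its groups overlapped, since APP/PS1 replicate 1 was below the highest WT value. The log2 fold change of 0.28 (SE 0.11) was 0.11 without APP/PS1 replicate 2 and 0.44 without APP/PS1 replicate 1, where it passed (adjusted p = 0.0344 in edgeR).

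The neuron-enriched list had 15 tested names, 0 higher and 1 lower at an unadjusted p under 0.05, against 5.08% and 3.46% of all names. Its median was -0.074, with summed levels of 283505 to 338448 CPM in APP/PS1 and 291927 to 318329 CPM in WT cortex. miR-124-3p averaged 190606 ± 17472 CPM in APP/PS1 cortex and 174177 ± 15172 CPM in WT cortex (SD, n = 3 each), and the fitted difference was 0.13 on the log2 scale (SE 0.10). The 1 lower name, miR-129-5p, stood at 1726, 905 and 1278 CPM in APP/PS1 cortex, against 1963, 1551 and 1543 CPM in WT cortex. APP/PS1 replicate 2 was lowest, and APP/PS1 replicates 2 and 3 were below the range of other ages (1287 to 2098 CPM), while APP/PS1 replicate 1 was within the WT values. The log2 fold change was -0.37 (SE 0.16, adjusted p = 0.466 in edgeR's quasi-likelihood test), and it passed without APP/PS1 replicate 1 (log2 fold change -0.58, adjusted p = 0.0344). In bulk tissue, fewer cells of a type and less RNA per cell cannot be told apart.

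The median of the 5 tested names that neuronal activity regulates was -0.066. Of these, 1 was higher at an unadjusted p under 0.05, against 5.08% of all names. That name, miR-212-5p, stood at 2345, 3801 and 2674 CPM in APP/PS1 cortex, against 2739, 1907 and 1948 CPM in WT cortex. APP/PS1 replicate 2 was highest, and WT replicate 1 lay above the 2 other APP/PS1 libraries. edgeR's quasi-likelihood test gave 0.42 for the log2 fold change (SE 0.15, adjusted p = 0.384), and it was 0.61 without APP/PS1 replicate 1 (adjusted p = 0.0344).

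Immune and microglial miRNAs had 9 tested names, 0 at an unadjusted p under 0.05 and a median of 0.057. miR-146a-5p, which is induced by inflammatory signalling, stood at 14.1, 15.7 and 18.99 CPM in APP/PS1 cortex, against 13.4, 13.1 and 12.2 CPM in WT cortex, without overlap. As a log2 fold change this was 0.33 (SE 0.18, adjusted p = 0.718 in edgeR's quasi-likelihood test). miR-142a-3p, a blood cell and microglial miRNA, stood at 11.1, 8.83 and 9.81 CPM in APP/PS1 cortex, against 12.1, 15.6 and 10.7 CPM in WT cortex, with overlap, and miR-150-5p, of lymphocytes, averaged 551 ± 65.04 CPM in APP/PS1 cortex and 476 ± 72.9 CPM in WT cortex (SD, n = 3 each). The summed level of the list was 7760.1 to 12668 CPM in APP/PS1 and 7076 to 9286 CPM in WT cortex. It was highest in APP/PS1 replicate 1, where miR-342-3p was 5375 of 12668 CPM.

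Erythrocyte miRNAs were below 0 in 7 of 7 names, which are 5 distinct counts, and 0 had an unadjusted p under 0.05. Their median log2 fold change was -0.11. miR-451a, the main miRNA of red cells, stood at 625, 501 and 394 CPM in APP/PS1 cortex, against 819.8, 819 and 438 CPM in WT cortex. The groups overlapped because WT replicate 3 was low. In edgeR's quasi-likelihood test the log2 fold change was -0.45 (SE 0.33, adjusted p = 0.842). The summed list lay at 1462 to 1823 CPM in APP/PS1 and 1542 to 2520 CPM in WT cortex, and these ranges overlapped.

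Lists of other cell types were small. Of 4 tested names of endothelium and smooth muscle, all were above 0. At an unadjusted p under 0.05, 1 was higher, against 5.08% of all names. That was miR-145a-5p, of smooth muscle, at 4.22, 4.97 and 3.16 CPM in APP/PS1 cortex, against 2.32, 2.5 and 2.22 CPM in WT cortex, and its log2 fold change was 0.82 (SE 0.39, adjusted p = 0.582 in edgeR's quasi-likelihood test). Their summed level was 11140.0 to 12388 CPM in APP/PS1 and 10177 to 11814 CPM in WT cortex. Choroid plexus and ciliated cells had 4 tested names and a median of -0.07, with sums of 244 to 359.7 CPM in APP/PS1 and 179 to 324 CPM in WT cortex, and miR-34b-5p, miR-34b-3p and miR-34c-5p were at 0 counts in all 6 libraries. Striated muscle and liver had 6 tested names and a median of 0.037. Of the oligodendrocyte list only miR-338-3p was testable, and miR-219a-5p, a defining name, was at 0 counts. miR-200a-3p, miR-200b-3p, miR-200c-3p and miR-375-3p, of epithelium and endocrine cells, were also at 0 counts.

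The miR-29 family, whose members target Bace1, had 5 tested names, 0 at an unadjusted p under 0.05 and a median of 0.11. miR-29b-3p stood at 2654, 2305 and 2337 CPM in APP/PS1 cortex, against 1792, 2275 and 2310.4 CPM in WT cortex. Only WT replicate 1 was clearly low, and the groups overlapped. Fitted with edgeR's quasi-likelihood test, the log2 fold change was 0.19 (SE 0.10, adjusted p = 0.657). Among miRNAs reported to target App or Bace1, 19 were tested, 0 had an unadjusted p under 0.05, 10 lay above 0 and 9 below, and the median was 0.024. The panel often studied in Alzheimer disease had 13 tested names and a median of 0.13. Of these, 1 was higher at an unadjusted p under 0.05, against 5.08% of all names. That name was miR-125b-5p, described above.

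The imprinted Dlk1-Dio3 locus encodes a large miRNA cluster on chromosome 12. It had 90 tested names, 0 passing, with 5 higher and 1 lower at an unadjusted p under 0.05, against 5.08% and 3.46% of all names, so that the higher names were near that background, and a median of 0.04. The lower name, miR-379-5p (chr12:109709065-109709085, plus strand), stood at 1022, 1022 and 983 CPM in APP/PS1 cortex, against 1203, 1091 and 1264 CPM in WT cortex. The groups did not overlap. The log2 fold change was -0.23 (SE 0.076, adjusted p = 0.384 in edgeR's quasi-likelihood test), with fits leaving out 1 library between -0.28 and -0.15. miR-329-3p of the locus stood at 235, 249.9 and 237 CPM in APP/PS1 cortex, against 168, 230.4 and 199.9 CPM in WT cortex, also without overlap but in the other direction, and its log2 fold change was 0.27 (SE 0.10, adjusted p = 0.384 in edgeR's quasi-likelihood test). miR-1193-3p, miR-541-3p and miR-494-3p had log2 fold changes of 0.30, 0.26 and 0.27, and all 3 overlapped. The fifth higher name was miR-376c-3p.

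The Sfmbt2 cluster, which includes the miR-466, miR-467 and miR-669 families, had 27 tested names that were 18 distinct counts. Of these 0 passed, and the median was -0.22. Summed over the 27 names, the cluster stood at 399, 363 and 186 CPM in APP/PS1 cortex, against 294, 366 and 276 CPM in WT cortex. Only APP/PS1 replicate 3 lay below the WT values, and the other APP/PS1 libraries lay within or above them. At an unadjusted p under 0.05, 2 identical names were lower, against 3.46% of all names. miR-467a-3p, counted identically to miR-467d-3p, stood at 2.82, 3.03 and 2.21 CPM in APP/PS1 cortex, against 6.03, 5.94 and 2.88 CPM in WT cortex, and its log2 fold change was -0.81 (SE 0.34, adjusted p = 0.457 in edgeR's quasi-likelihood test). At 2 to 6 CPM these are few counts, and WT replicate 3 lay within the APP/PS1 values.

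Other lower names were of low level as well. miR-1839-5p stood at 8.45, 7.72 and 8.86 CPM in APP/PS1 cortex, against 15.3, 10.3 and 11.3 CPM in WT cortex, without overlap. Its log2 fold change was -0.54 (SE 0.21, adjusted p = 0.384 in edgeR's quasi-likelihood test). miR-181a-2-3p stood at 6.23, 4.69 and 7.28 CPM in APP/PS1 cortex, against 17.2, 5.94 and 11.98 CPM in WT cortex, where WT replicate 2 lay within the APP/PS1 values. Its log2 fold change was -0.92 (SE 0.40, adjusted p = 0.466 in edgeR's quasi-likelihood test). Other ages ranged over 1.69 to 7.93 CPM, so all APP/PS1 libraries lay within that range and WT replicates 1 and 3 above it. miR-378a-3p, from an intron of Ppargc1b, stood at 61.7, 40.3 and 51.9 CPM in APP/PS1 cortex, against 61.2, 72.9 and 62.6 CPM in WT cortex. APP/PS1 replicate 1 lay within the WT values, and the log2 fold change was -0.35 (SE 0.16, adjusted p = 0.488 in edgeR's quasi-likelihood test). miR-1195 stood at 3.22, 2.76 and 8.23 CPM in APP/PS1 cortex, against 7.42, 9.07 and 9.54 CPM in WT cortex. APP/PS1 replicate 3 was within the WT values and the other 2 were below them. Other ages ranged over 1.16 to 3.73 CPM. APP/PS1 replicates 1 and 2 lay within that range, and APP/PS1 replicate 3 and all WT libraries above it. edgeR's quasi-likelihood test gave -0.93 for the log2 fold change (SE 0.34, adjusted p = 0.384), and without replicate 3 it passed, at -1.54 (adjusted p = 0.0346). miR-706, with 3, 0 and 6 counts in APP/PS1 and 11, 7 and 23 in WT cortex, was below the filter on low counts with all libraries. It entered that same fit only through the WT libraries in which it was high, since libraries of other ages had 0 to 4 counts. Its pass there (adjusted p = 0.0406 in edgeR) is therefore not separate support for a difference.

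Of the names lower at an unadjusted p under 0.05, the 2 with the largest fold changes, miR-690 and its predicted follower, were part of a set that was high at 6 months in both genotypes. There were 8 names with a log2 fold change over 2 for 6 against 3 months at an adjusted p under 0.05: miR-690, the predicted miRNA that follows it, miR-3470a, miR-3470b, miR-1957a, miR-3471, miR-3473a and miR-6481. That rule uses the same 6-month libraries, so the set is a description. Summed, the 8 names stood at 358, 564 and 718 CPM in APP/PS1 cortex, against 1256, 1175 and 917 CPM in WT cortex. The groups did not overlap at 6 months, and every library of 6 months was above every library of another age, the highest of which was APP/PS1 9-month replicate 1 at 348 CPM.

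miR-690 was the largest part of that sum. It stood at 176, 286 and 373 CPM in APP/PS1 cortex, against 678, 638 and 442 CPM in WT cortex. All APP/PS1 values were below all WT values, and the other ages ranged over 8.06 to 177 CPM. As a log2 fold change this was -1.08 (SE 0.38, adjusted p = 0.384 in edgeR's quasi-likelihood test), with fits leaving out 1 library between -1.32 and -0.78. The predicted miRNA followed it at 102, 178 and 219 CPM in APP/PS1 cortex, against 406, 409 and 276 CPM in WT cortex, and its log2 fold change was -1.13 (SE 0.37, adjusted p = 0.384 in edgeR's quasi-likelihood test). miR-3470b stood at 17.3, 33.9 and 35.8 CPM in APP/PS1 cortex, against 51.9, 43.1 and 63.5 CPM in WT cortex, without overlap. Its log2 fold change was -0.88 (SE 0.37, adjusted p = 0.457 in edgeR's quasi-likelihood test). miR-3470a stood at 30.8, 49.4 and 58.2 CPM in APP/PS1 cortex, against 86.2, 56.3 and 98.1 CPM in WT cortex. WT replicate 2 lay within the APP/PS1 values, and the log2 fold change was -0.81 (SE 0.31, adjusted p = 0.384 in edgeR's quasi-likelihood test). Of the rest, miR-1957a, miR-3471 and miR-3473a were lower in the mean and overlapped, with log2 fold changes of -0.71, -0.63 and -0.72. miR-6481 was higher in the mean through APP/PS1 replicate 1, at 22.3, 5.79 and 2.85 CPM in APP/PS1 cortex, against 7.88, 10.6 and 1.78 CPM in WT cortex.

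**Figure D5:**
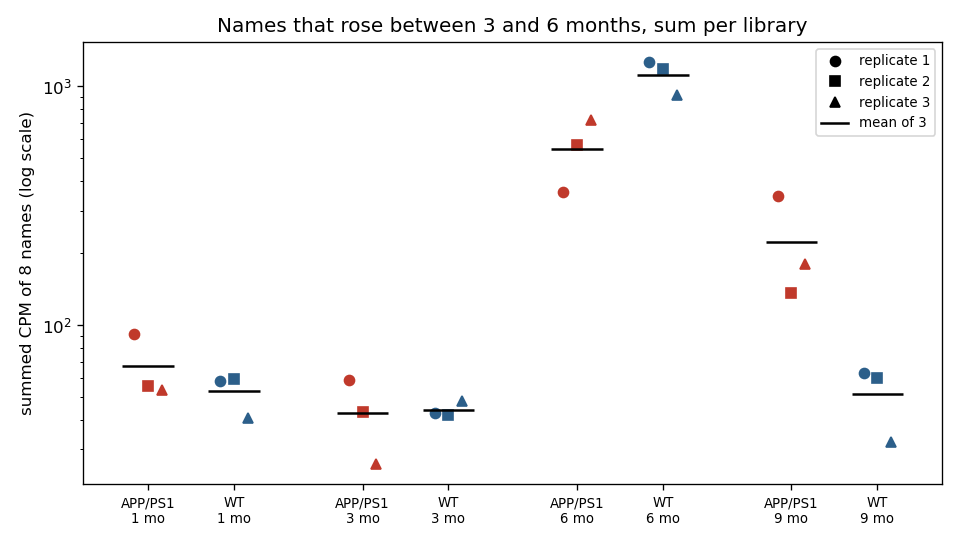
Summed CPM after TMM scaling (y axis, log scale) of the 8 names that were higher at 6 than at 3 months, per library, APP/PS1 left of WT at each age, with replicates 1, 2 and 3 as circles, squares and triangles and the mean as a bar. At 6 months the 3 APP/PS1 libraries lie between 358 and 718 and the 3 WT libraries between 917 and 1256, while at 9 months the order of the groups is the other way round.

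At 9 months miR-690 lay the other way round between the genotypes. miR-690 stood at 177, 62.4 and 90.97 CPM in APP/PS1 9-month cortex, against 26.3, 28.2 and 13.4 CPM in WT 9-month cortex, so its log2 fold change was 2.29 there and -1.08 at 6 months. The difference at 6 months minus that at 9 months was -3.37 (SE 0.57, adjusted p = 0.00164 in edgeR's quasi-likelihood test), and 7 names passed that test (1.62%). Against the mean of the differences at the other 3 ages, 0 of 433 passed in edgeR, with 30 at an unadjusted p under 0.05 and a smallest adjusted p of 0.0823, shared by miR-690 and the predicted miRNA. The contrast for miR-690 was -1.93 (SE 0.45) and that for miR-100-5p 0.33 (SE 0.11, adjusted p = 0.406). No difference at 6 months is therefore shown by that test to be particular to that age. miR-100-5p had log2 fold changes of 0.12, 0.0073 and -0.04 at 1, 3 and 9 months.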

How the data were processed

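Per the labels' protocols, adapters were removed with Cutadapt 1.14 (reads of 17 to 35 bases kept), reads of quality under 20 with Trimmomatic 0.36, and reads matching other RNA families or repeats with BLAST 2.6.0. Names follow miRBase 21.0, and miRDeep2 2.0.0.8 added predicted miRNAs. How reads were counted, shared between names or placed on a genome is not given in the sources used here. In the table the authors deposited are raw counts per miRNA name, for 1927 names in 24 libraries, and 802 names had 0 counts throughout. The submitters' notes name edgeR without a model.

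The filterByExpr step of edgeR, at a count of 10 and a total of 15, kept 433 names, and the 9 predicted ones are described by the known miRNA that they follow. Counts were TMM-scaled and fitted with edgeR 4.0.16 (R 4.3.3) by quasi-likelihood over all 24 libraries, 1 mean for each of 8 groups, with 16 residual and 4.64 prior degrees of freedom and a common biological coefficient of variation of 18.6%. Benjamini and Hochberg's adjustment ran over all 433 names, with a threshold of 0.05. The p-values rest on the spread between mice within all 8 groups, not within the 6-month groups alone. Each standard error was obtained from the fold change and its F statistic. Departures use log2 CPM with a prior count of 2. The code was tested on simulated data. Alternatives were DESeq2 1.42.0, other scalings and filters, the 6-month libraries alone, a replicate block, and leaving out each library.

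The comparison, miRNA lists and tests were chosen with earlier results of these data known. Names in the text are the 12 higher and 12 lower with the smallest p, those passing with a library left out, the largest departures, the clusters of miR-99/100, let-7 and miR-125, leading list members and the names higher at 6 than at 3 months. Others were chosen after their values were seen: miR-125b-2-3p and miR-342-5p as partners, miR-433-3p, miR-666-5p, miR-770-3p, miR-135a-5p, miR-34a-5p, miR-1298-3p, miR-1264-3p, miR-448-3p, miR-7b-5p, miR-96-5p and miR-466g. Host genes are from the GENCODE annotation of GRCm38. The difference between 6 and 9 months was added after seeing the data.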

Additional observations from a re-analysis of the deposited data

Results flagged for a closer look

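The APP/PS1 minus WT difference was not the same at 6 and at 9 months for 7 names, by a test of the difference between the ages (edgeR's quasi-likelihood, adjusted over 433 names) that was added after the data were seen. As log2 values at 6 minus 9 months these were -3.37 for miR-690 (SE 0.57, adjusted p = 0.00164) and -3.25 for the predicted miRNA that follows it (SE 0.55, adjusted p = 0.00164). They were -2.65 for miR-1957a (SE 0.60, adjusted p = 0.0268), -2.44 for miR-3470b (SE 0.58, adjusted p = 0.0311) and -2.35 for miR-3470a (SE 0.48, adjusted p = 0.0107). All 5 are among the names that were high at 6 months, and each was lower in APP/PS1 at 6 months and higher in APP/PS1 at 9 months.

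The other 2 are the arms of miR-142a, of blood cells and microglia. miR-142a-3p gave -1.33 (SE 0.32, adjusted p = 0.0311), with 9.9 CPM in APP/PS1 and 12.8 CPM in WT cortex at 6 months and 17.0 CPM in APP/PS1 and 8.77 CPM in WT cortex at 9 months. miR-142a-5p gave -0.73 (SE 0.18, adjusted p = 0.0328), with 627 CPM in APP/PS1 and 673 CPM in WT cortex at 6 months and 789.7 CPM in APP/PS1 and 509.8 CPM in WT cortex at 9 months. Their log2 fold changes were -0.36 and -0.10 at 6 months and 0.97 and 0.63 at 9 months.

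miR-690 and the predicted miRNA passed with each of the 6 libraries left out in turn, and the other 5 did not. Without WT replicate 1 of 6 months, 2 of the 7 passed, the adjusted p of the other 5 lying between 0.0522 and 0.0951. Without APP/PS1 replicate 2, 4 were lost (0.0625 to 0.081), and without WT replicate 3, 3 were lost (0.051 to 0.0897). Without WT replicate 2 miR-142a-3p was lost (0.122), and without APP/PS1 replicate 1 miR-3470b (0.07).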

How the results depend on the processing

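The count of names passing at 6 months stayed at 0 in edgeR with DESeq2's size factors, with library totals, with a minimum count of 50, with a robust fit, in the 6-month libraries alone (388 tested, 10 at an unadjusted p under 0.05) and in DESeq2. With no filter on low counts 11 of 1125 passed, 8 of them names that did not pass with the filter and 3 that it removes, and with 1 library left out 0 to 7. Leaving out APP/PS1 replicate 1 gave 7, leaving out APP/PS1 replicate 3 gave 5, miR-706 among them, and leaving out any other gave 0. The contrast with the mean of the other ages gave 9 passing names with no filter, 2 with library totals and 0 to 4 with 1 library left out (4 without APP/PS1 replicate 3). The contrast with 9 months gave 7 names, of which miR-142a-3p was lost without the filter (adjusted p = 0.0639) and miR-142a-5p under the block (0.0726), with 23 under no filter and 2 to 10 with 1 library left out (2 without WT replicate 1, 3 without APP/PS1 replicate 2 and 4 without WT replicate 3).

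Departures numbered 78, and 39 with a prior count of 10 and 23 with a size over 1.5. Names that did not overlap numbered 29, and 47 on library totals. Of the fold changes named, 49 were followed under 14 alternatives, and 44 of these kept their direction in all. The other 5 turned with 1 library left out, with ranges of -0.0040 to 1.06 for miR-346-5p (lowest without APP/PS1 replicate 2), -0.67 to 1.59 for miR-342-3p and -0.51 to 1.33 for miR-6481 (lowest without APP/PS1 replicate 1), -1.01 to 0.64 for miR-10a-5p (highest without WT replicate 2) and -0.16 to 0.041 for miR-142a-5p (highest without WT replicate 1). Names outside the 49 turned as well. miR-433-3p, miR-666-5p and miR-135a-5p had log2 fold changes of -0.14, -0.41 and -0.47 without APP/PS1 replicate 2. Without APP/PS1 replicate 1 these were 0.51, 0.50 and 0.25. Same-numbered libraries had correlations of deviations of -0.0037, 0.11 and -0.18, beside -0.28 to 0.32 for libraries of different numbers. With 3 libraries a group this cannot show whether the numbers pair the mice. A fit with a replicate block passed 0 names (31 at an unadjusted p under 0.05). With 3 mice a group and a coefficient of variation of 18.6%, small differences cannot be shown.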

Other observations

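Below the filter on low counts, the 3 members of the miR-183 cluster of sensory epithelium, chosen after their values were seen, were highest in 1 WT library. miR-183-5p had 3, 2 and 3 counts in APP/PS1 cortex, against 1, 3 and 27 counts in WT cortex. miR-96-5p had 1, 1 and 0 counts in APP/PS1 cortex, against 1, 6 and 17 in WT cortex. miR-182-5p had 1, 0 and 0 counts in APP/PS1 cortex, against 0, 0 and 3 in WT cortex. WT replicate 3 was highest for all 3, and the libraries of other ages had at most 9, 2 and 2 counts. miR-96-5p was above that level in WT replicate 2 as well, and miR-182-5p, at 3 counts, was barely above it.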
